A study of Mus musculus with 6 samples.

Results

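The integrated stress response and the unfolded protein response were measured as mRNA levels in cortices dissected from E12.5 mouse embryos. The genes were chosen by name from their known function in these pathways, 41 genes in all, out of 22180 genes with a row of their own on the array. Of the 41, 39 had such a row and 38 were bright enough to be tested among 16724 genes. Cortices of 3 control embryos were compared with cortices of 3 embryos carrying Lats1F/F, Lats2F/F and Nestin-Cre, called DKO (double knock-out) here. F marks an allele with loxP sites, and Nestin-Cre deletes it in neural progenitors and the cells that descend from them, so cells of other origin in the dissected tissue, such as those of blood vessels, blood and meninges, are not its target. The labels give the control embryos no alleles beyond the word control, and state that embryos were untreated and that each sample came from its own embryo. Each RNA sample was hybridised to 1 whole-transcript array, and all levels below are log2 values normalized by the authors with RMA (robust multi-array average). RMA makes the arrays' distributions alike, so a change shared by all transcripts would not be seen.

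The integrated stress response begins with kinases that phosphorylate the translation factor eIF2. General translation then slows, while the mRNA of the transcription factor Atf4 is translated more, and the ATF4 protein, often with C/EBP partners, turns on genes for amino acid synthesis and transport and for redox control. The unfolded protein response is the matching programme for the endoplasmic reticulum (ER): its sensors PERK (Eif2ak3), IRE1 (Ern1) and ATF6 detect unfolded protein and raise chaperones, folding enzymes and the machinery of ER-associated degradation (ERAD). PERK also phosphorylates eIF2 and so belongs to both. Much of this control acts on translation, phosphorylation, protein cleavage and the splicing of Xbp1, none of which an mRNA level shows. The 41 genes comprised 19 of the ATF4-type response, 14 ER chaperones and ERAD genes, and 8 sensors and regulators close to them. In the developing cortex these pathways are known to affect how progenitors divide and differentiate.

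The arrays agreed closely over all rows, with Pearson correlations from 0.978 to 0.994. The check of the targeted genes was partial. The Lats1 level was 8.81, 8.34 and 8.98 in control and 7.82, 7.83 and 7.74 in DKO embryos, a log2 fold change (DKO minus control, here also called the log2 difference) of -0.91 ± 0.14 (SE, limma adjusted p 0.0189), whereas Lats2 was not lower, at 0.24 ± 0.10 (SE, adjusted p 0.285). The Lats1 call was lost without control 1 (adjusted p 0.0809), control 3 (0.0571), DKO 1 (0.0875) or DKO 3 (0.0811), although no DKO array overlapped a control. Where the probes lie relative to the deleted exons is not known here, so the Lats2 row may check nothing. One array differed from the other 5 in markers of cells outside the neural lineage. The mean log2 level of 10 meningeal markers was 6.55 in DKO 2 and between 6.99 and 7.34 in the other arrays, that of 12 endothelial and pericyte markers was 7.01 against 7.44 to 7.67, and that of 6 erythroid markers 7.42 against 7.97 to 8.09. The main counts of members and of the other pathway lists are therefore also given without DKO 2.

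Among the 38 tested members, 3 rose in DKO cortex, 0 fell and 35 did not pass a limma adjusted p of 0.05. The genes that rose were Atf3, Chac1 and Asns, all of the ATF4-type response, by 1.70-fold, 1.60-fold and 1.46-fold. Over all 16724 genes 1.36% rose and 0.359% fell (1.72% in either direction), and 3 of 38 is 7.89%. A higher DKO mean, whatever its p, was found in 25 of the 38 members and in 39.8% of all genes. At an unadjusted p under 0.05, 19 of the 38 members had a higher mean in DKO and 0 a lower one, while over all genes the shares were 6.39% and 9.18%. In 16 members all 3 DKO arrays lay above all 3 control arrays and in 0 members below, against 8.22% and 13.4% of all genes. The median log2 fold change of the members was 0.14, and that of all tested genes -0.03. These genes were listed with earlier results of the same arrays known, so the shares describe the list and are no independent test of it. Without DKO 2, 6 members rose, against 1.55% of all genes: Asns, Atf3, Chac1, Creld2, Phgdh and Psat1. In that fit 17 members had a higher mean at an unadjusted p under 0.05 (7.33% of all genes) and the groups did not overlap in 21 (14.9%). Without DKO 1 or without DKO 3 only Chac1 passed. Without control 2 only Atf3 passed, and without control 1 or control 3 none of the members did. With 3 embryos per group, an exact two-sided permutation test of a single gene can reach no p below 0.1, so the calls rest on the spread estimated over all genes.

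**Figure D1:**
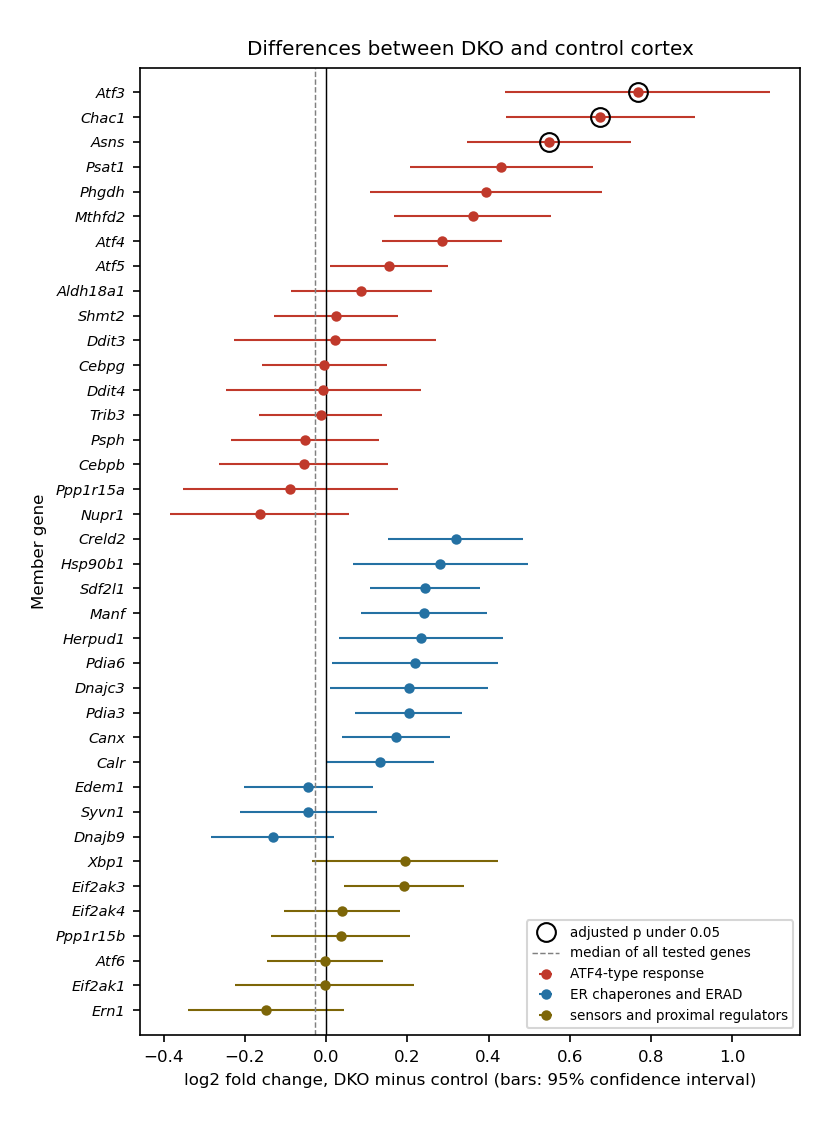
Log2 fold change (DKO minus control, 3 embryos each) of the 38 tested members, with 95% confidence intervals of the limma fit; colours mark the 3 branches, circles mark adjusted p under 0.05, and the dashed line is the median of all tested genes. Atf3, Chac1 and Asns are circled at 0.77, 0.68 and 0.55, and 10 of 13 ER chaperone and ERAD genes lie to the right of 0.

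The sensors and the regulators next to them differed little between the genotypes. Of 7 tested genes of this branch, 0 passed the limma test (1.72% of all genes did, in either direction). With a higher DKO mean, 1 had an unadjusted p under 0.05 (6.39% of all genes). This was Eif2ak3, which encodes PERK, the eIF2 kinase of the ER membrane: its level was 7.54, 7.46 and 7.52 in control and 7.74, 7.61 and 7.73 in DKO embryos. All 3 DKO arrays lay above the controls, and the log2 difference was 0.19 ± 0.06 (SE, adjusted p 0.208). The kinase genes Eif2ak4 (GCN2, which senses uncharged tRNA) and Eif2ak1 (HRI, which heme inhibits) had log2 fold changes of 0.04 (95% confidence interval -0.10 to 0.18) and -0.0040 (-0.22 to 0.22). Atf6 had -0.0031 (-0.15 to 0.14). Ern1, which encodes IRE1, had -0.15 ± 0.08 (SE, adjusted p 0.451), with levels of 7.62, 7.75 and 7.90 in control and 7.69, 7.57 and 7.56 in DKO embryos that overlapped. Its substrate Xbp1 had 0.19 ± 0.10 (SE, adjusted p 0.407), and here DKO 1 stood at 9.73 while DKO 2 and DKO 3, at 9.43 and 9.35, were close to or within the control range of 9.26 to 9.39. Eif2ak2, which encodes the kinase PKR that binds double-stranded RNA, was below the limit for dim genes, at 4.88 to 5.05 over the 6 arrays, and was not tested.

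The genes for the subunits that direct the phosphatase back to eIF2 gave no difference past the test. Ppp1r15a (GADD34), the stress-induced subunit and counted with the ATF4-type genes, had a log2 difference of -0.09 ± 0.12 (SE, adjusted p 0.769), and Ppp1r15b, the constitutive subunit, 0.04 ± 0.07 (SE, adjusted p 0.859). Their 95% confidence intervals ran from -0.35 to 0.18 and from -0.13 to 0.21.

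Transcription factors of the ATF4 branch did not move as one. Atf3, a bZIP factor induced by stress, rose: its level was 6.002, 6.34 and 6.04 in control and 7.12, 6.59 and 6.98 in DKO embryos. No DKO array overlapped the controls, although DKO 2 lay only slightly above control 2, and the log2 difference was 0.77 ± 0.14 (SE, limma adjusted p 0.0382), larger than that of 99.4% of tested genes. This call was lost without control 1 (adjusted p 0.143), control 3 (0.145), DKO 1 (0.131) or DKO 3 (0.130). Atf4 itself, the central factor, was at 8.20, 8.06 and 8.10 in control and 8.45, 8.37 and 8.39 in DKO embryos. Its DKO arrays were tightly grouped above the controls, with a log2 difference of 0.29 ± 0.06 (SE) that missed the threshold (adjusted p 0.0772). The adjusted p was 0.0414 with a stricter filter on dim genes, 0.0387 with a trended variance and 0.0460 after repeated quantile normalization, and 0.112 to 0.211 when 1 array was left out.

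The other factors of this branch did not pass the test. Atf5, a relative of Atf4 that is also controlled by translation, had a log2 difference of 0.16 ± 0.06 (SE, adjusted p 0.292), with all DKO arrays (7.68, 7.79 and 7.68) above all controls (7.55, 7.61 and 7.52). Ddit3, which encodes the pro-apoptotic factor CHOP, was at 7.01, 6.74 and 6.91 in control and 7.13, 6.78 and 6.81 in DKO embryos. These ranges overlapped almost fully, and the log2 fold change was 0.02 with a 95% confidence interval from -0.23 to 0.27. Trib3, a pseudokinase that binds ATF4 and damps its activity, was at 5.95, 5.87 and 5.94 in control and 5.88, 5.995 and 5.84 in DKO embryos, with an interval of the difference from -0.17 to 0.14. Cebpg, a dimer partner of ATF4, had an interval from -0.16 to 0.15, and Cebpb, a C/EBP factor of stress and inflammation, from -0.26 to 0.15. Nupr1, a small stress-induced chromatin protein, had the lowest fold change of all 38 members, -0.16 (95% confidence interval -0.38 to 0.06). The upper ends of these 5 intervals lie below the 0.55 measured for Asns. Trib3, Cebpb and Nupr1 had low levels, with means of 5.91, 5.73 and 6.01 over the 6 arrays against 9.71 for Asns. Atf3 and Chac1, which rose, were also dim in control embryos, with means of 6.13 and 6.17. Signal over background could not be judged for any of these dim genes. The intervals of Trib3, Cebpb and Nupr1 are therefore no firm limit on a change in mRNA. The same holds for the sizes measured for Atf3 and Chac1.

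**Figure D2:**
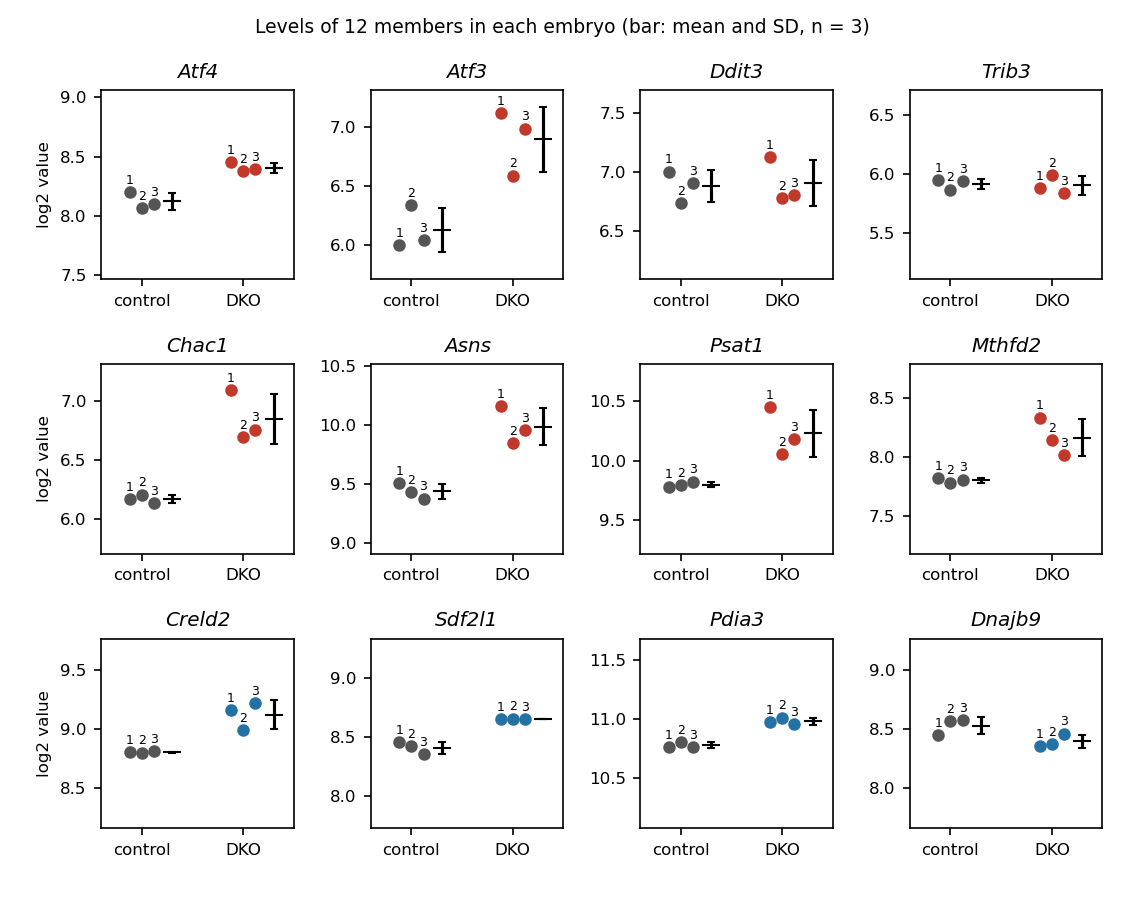
Log2 values of 12 members in each embryo, with numbers marking the replicate and bars the mean and SD (n = 3); each panel spans the same height of 1.6 log2 units. Chac1, Asns, Atf3, Atf4, Psat1, Mthfd2, Creld2, Sdf2l1 and Pdia3 have all DKO embryos above all controls, while Ddit3, Trib3 and Dnajb9 overlap.

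Stress effectors and amino acid enzymes included the other 2 genes that rose. Chac1, an enzyme that degrades glutathione, was at 6.17, 6.20 and 6.13 in control and 7.09, 6.69 and 6.76 in DKO embryos. Control embryos differed by little, at 6.17 ± 0.04 (SD, n = 3), and DKO embryos were more spread, at 6.85 ± 0.21 (SD, n = 3). The log2 difference was 0.68 ± 0.10 (SE, limma adjusted p 0.0154), above that of 99.2% of tested genes. Asns, the synthetase that makes asparagine and the classical reporter of amino acid shortage, was at 9.51, 9.43 and 9.38 in control and 10.16, 9.85 and 9.96 in DKO embryos. The log2 difference was 0.55 ± 0.09 (SE, limma adjusted p 0.0197), and no DKO array overlapped a control. The Chac1 call was lost without control 1 (adjusted p 0.0624), control 2 (0.0523) or control 3 (0.0741). The Asns call was lost without control 1 (0.0562), control 2 (0.0674), control 3 (0.0879), DKO 1 (0.0502) or DKO 3 (0.0712). Ddit4 (REDD1), a stress-induced inhibitor of mTORC1, showed no such difference: its levels of 8.07, 8.01 and 7.68 in control and 7.92, 7.83 and 7.98 in DKO embryos overlapped, with an interval of the difference from -0.25 to 0.23.

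Enzymes that make serine and feed one-carbon units from it were unequal. Psat1, the aminotransferase of the serine pathway, was at 9.78, 9.79 and 9.82 in control and 10.45, 10.05 and 10.18 in DKO embryos, a log2 difference of 0.43 ± 0.10 (SE, adjusted p 0.0803). All 3 DKO values were above the controls. Mthfd2, the mitochondrial folate enzyme, was at 7.82, 7.78 and 7.81 against 8.33, 8.14 and 8.02, again without overlap, with 0.36 ± 0.08 (SE, adjusted p 0.0853). Phgdh, which catalyses the first step of serine synthesis, had 0.39 ± 0.12 (SE, adjusted p 0.185), with DKO 1 and DKO 3 at 8.47 and 8.50 but DKO 2, at 8.06, inside the control range of 7.80 to 8.08. Without DKO 2 both Psat1 (adjusted p 0.0344) and Phgdh (0.0338) passed. Psph, the phosphatase of the last step, had -0.05 (95% confidence interval -0.23 to 0.13), and Shmt2, which moves a one-carbon unit from serine to folate in mitochondria, 0.02 (-0.13 to 0.18). Aldh18a1, the first enzyme of proline synthesis, had 0.09 (-0.09 to 0.26). Pycr1, which completes proline synthesis, had no row with its name alone and was not analysed here.

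Promoters are shown for the 3 genes that rose and for the 2 ER chaperone genes with the smallest p, whether or not they held an element. Each of the 3 that rose held the short element that C/EBP-ATF dimers bind, and Sdf2l1 held no match to any element searched. The sequences are the 250 bases before the annotated start in RefSeq (GRCm38.p6), read 5′ to 3′ on the strand of the gene. Capitals mark a match to the C/EBP-ATF response element (TGATGNAA) in Atf3, Chac1 and Asns and to the ER stress response element (CCAAT, 9 bases of any kind, CCACG) in Creld2; in Atf3, Chac1 and Creld2 the match lies on the opposite strand and so is read here as its reverse complement. The coordinates are chr1:191183334-191183583 (minus strand) for Atf3, chr2:119350992-119351241 (plus) for Chac1, chr6:7693210-7693459 (minus) for Asns, chr15:88819396-88819645 (plus) for Creld2 and chr16:17132384-17132633 (minus) for Sdf2l1.
Atf3: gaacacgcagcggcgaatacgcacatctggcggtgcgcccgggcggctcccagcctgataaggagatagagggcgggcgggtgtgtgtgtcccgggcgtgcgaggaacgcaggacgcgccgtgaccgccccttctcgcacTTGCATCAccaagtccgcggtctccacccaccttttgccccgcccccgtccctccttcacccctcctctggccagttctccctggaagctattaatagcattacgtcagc
Chac1: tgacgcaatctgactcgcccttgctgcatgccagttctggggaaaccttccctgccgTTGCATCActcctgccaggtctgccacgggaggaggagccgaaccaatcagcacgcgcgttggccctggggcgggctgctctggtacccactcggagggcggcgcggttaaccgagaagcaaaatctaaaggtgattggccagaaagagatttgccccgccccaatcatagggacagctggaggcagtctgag
Asns: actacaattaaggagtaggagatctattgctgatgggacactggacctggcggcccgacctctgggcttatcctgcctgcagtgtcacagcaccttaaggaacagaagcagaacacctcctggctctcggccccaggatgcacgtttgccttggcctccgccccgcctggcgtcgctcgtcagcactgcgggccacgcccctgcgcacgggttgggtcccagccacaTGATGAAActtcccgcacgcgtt
Creld2: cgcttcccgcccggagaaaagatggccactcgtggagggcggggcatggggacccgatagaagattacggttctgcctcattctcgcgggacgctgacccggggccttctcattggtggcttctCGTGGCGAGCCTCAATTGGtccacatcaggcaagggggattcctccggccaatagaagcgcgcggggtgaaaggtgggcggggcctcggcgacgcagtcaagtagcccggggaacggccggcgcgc
Sdf2l1: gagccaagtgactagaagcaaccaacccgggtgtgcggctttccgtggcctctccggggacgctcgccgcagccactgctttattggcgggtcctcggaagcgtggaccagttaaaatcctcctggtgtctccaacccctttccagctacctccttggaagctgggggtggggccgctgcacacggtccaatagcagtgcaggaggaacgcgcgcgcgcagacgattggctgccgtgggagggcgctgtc

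Elements were searched on both strands from 250 bases before to 50 after the start, with 38 of the 41 members found in the promoter table; Atf6, Ppp1r15b and Manf had no entry. TGATGNAA was found in 7 of the 38 (18.4%), in 4.51% of the 27025 genes of the table and in 3.97% of its 32851 promoters. The 7 were Asns, Atf3, Chac1, Herpud1, Nupr1, Pycr1 and Trib3. Asns, Atf3 and Chac1 are the members that rose, while Herpud1, Nupr1 and Trib3 did not pass the test, at 0.23, -0.16 and -0.01, so a match did not go with an increase in each case. Psat1 and Mthfd2 had no match in this window. The ER stress response element was found in 7 of the 38 (18.4%) and in 0.137% of all genes (0.119% of promoters): in Calr, Canx, Creld2, Dnajc3, Hsp90b1, Pdia6 and Syvn1. The first 6 of these had log2 fold changes from 0.13 to 0.32, each with an unadjusted p under 0.05 and none past adjustment, and Syvn1 had -0.04. Of 28 tested members with a promoter but without this element, 12 also had a higher mean at such a p, as did 6.39% of all genes. Whether the element bears on the level was not tested. The UPR element TGACGTGG was found in 0 members and 0.714% of all genes (0.676% of promoters), the cyclic AMP response element TGACGTCA in 1 member (Ppp1r15a) and 2.03% (1.79%), and the element of the TEAD factors, through which YAP and TAZ act, GGAATG, in 3 members (Eif2ak3, Ern1 and Pdia6) and 16.6% (14.7%). No match of one element overlapped a match of another in these promoters. The members were chosen by name for the pathways after which the C/EBP-ATF and ER stress elements are called. The shares of these elements therefore describe the list and are no test of it. A match is a stretch of letters and not a measured binding site.

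ER chaperones and folding enzymes had small log2 differences, from -0.13 to 0.32, with a higher DKO mean in 9 of 10 and none past the test. Of 10 tested, 0 passed the limma test over all genes, 9 had an unadjusted p under 0.05 with a higher DKO mean, and in 7 the groups did not overlap, against 6.39% and 8.22% of all genes. With a trended variance 4 members of the ER branch passed: Canx, Creld2, Pdia3 and Sdf2l1. Over all 16724 genes 323 rose with that variance, against 228 in the main fit. Without DKO 2, 1 of the 10 passed (Creld2), 8 had an unadjusted p under 0.05 and 8 did not overlap. Over all genes, the upward shares without that array were 1.55%, 7.33% and 14.9%. The median log2 fold change of the 10 was 0.21. Creld2, a folding enzyme induced by ER stress, had the smallest p. It was at 8.80, 8.80 and 8.81 in control and 9.16, 8.99 and 9.22 in DKO embryos, a log2 difference of 0.32 ± 0.07 (SE, adjusted p 0.0807). The controls were nearly identical and all DKO arrays lay above them. Without DKO 2 the adjusted p of Creld2 was 0.0323. Sdf2l1, a partner of the chaperone BiP, was at 8.46, 8.42 and 8.36 in control and 8.65, 8.66 and 8.65 in DKO embryos, a log2 difference of 0.24 ± 0.06 (SE, adjusted p 0.0960). Manf, a secreted ER-resident factor that protects neurons, was at 6.86, 6.78 and 6.71 against 7.04, 6.96 and 7.08, also without overlap (adjusted p 0.139).

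The other members of this group lay between -0.13 and 0.28. Pdia3, the disulfide isomerase that works with the lectin chaperones, was at 10.76, 10.81 and 10.76 in control and 10.97, 11.01 and 10.96 in DKO embryos, 0.20 ± 0.06 (SE, adjusted p 0.141). Canx (calnexin) and Calr (calreticulin), which hold glycoproteins until they are folded, had 0.17 ± 0.06 (SE, adjusted p 0.208) and 0.13 ± 0.06 (SE, adjusted p 0.319). Both had all DKO arrays above all controls. Hsp90b1 (GRP94), the Hsp90 of the ER, was at 10.27, 10.30 and 10.44 in control and 10.81, 10.57 and 10.48 in DKO embryos, 0.28 ± 0.09 (SE, adjusted p 0.206). In Pdia6 and Dnajc3, at 0.22 (adjusted p 0.290) and 0.20 (adjusted p 0.299), control 3 stood above at least 1 DKO array. Dnajb9 (ERdj4), a co-chaperone that restrains IRE1, was the exception among the folding genes, with a lower DKO mean: it was at 8.45, 8.57 and 8.57 in control and 8.36, 8.37 and 8.46 in DKO embryos, a log2 difference of -0.13 ± 0.07 (SE, adjusted p 0.393). Pdia4, another disulfide isomerase, shared its row with a further gene symbol and was not analysed here.

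Of the 3 ERAD genes, 0 passed the limma test (1.72% of all genes did, in either direction). With a higher DKO mean, 1 had an unadjusted p under 0.05 (6.39% of all genes). Herpud1, an ER membrane protein that gathers the degradation complex, was at 8.19, 8.09 and 8.13 in control and 8.56, 8.27 and 8.28 in DKO embryos, with DKO 1 the highest and no overlap, a log2 difference of 0.23 ± 0.09 (SE, adjusted p 0.250). Edem1, which marks glycoproteins for removal, and Syvn1 (HRD1), the ubiquitin ligase of the complex, had -0.04 each, with 95% confidence intervals from -0.20 to 0.12 and from -0.21 to 0.12. Edem1 had a second, dimmer row, at a mean of 4.68, with a fold change of -0.06.

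**Figure D3:**
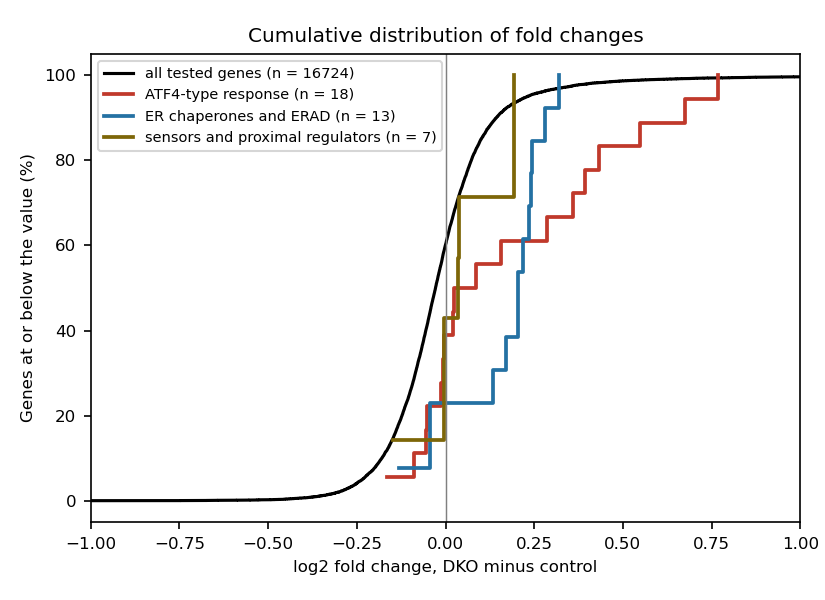
Cumulative share of genes (percent) by log2 fold change for all 16724 tested genes and for the 18, 13 and 7 tested members of the 3 branches; the horizontal axis is limited to -1 to 1. The ER branch lies to the right of all genes over most of its range, with a median of 0.20 against -0.03, and the ATF4-type branch holds 7 genes from 0.29 to 0.77 and 11 below.

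The branches differed in how their members were spread. In the ATF4-type branch 11 of 18 tested genes had a higher DKO mean, 8 had an unadjusted p under 0.05 and 3 passed, against 39.8%, 6.39% and 1.36% of all genes, with a median log2 fold change of 0.05 and a range from -0.16 to 0.77. That median was 0.02 without DKO 1, 0.10 without DKO 2 and 0.10 without control 3. Without DKO 2, 5 genes of the branch passed, and 1.55% of all genes rose. In the ER branch 10 of 13 had a higher mean, the same 10 had an unadjusted p under 0.05 and 0 passed (1 without DKO 2), against the same shares of all genes, with a median of 0.20 and a range from -0.13 to 0.32. In the sensor branch the median was 0.04. The spread within groups was also unequal: the median residual SD of a gene was 0.125 in the ATF4-type branch, 0.0742 in the ER branch and 0.0951 over all genes. No test of one branch against another was made.

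The DKO embryos differed among themselves. Relative to the control mean of each gene, the median deviation over the 38 members was 0.19 in DKO 1, 0.10 in DKO 2 and 0.11 in DKO 3, and between -0.01 and 0.01 in the control arrays. DKO 1 was the highest of the DKO arrays in 24 of the 38 members and DKO 2 the lowest in 22. In the ER branch the medians were 0.24, 0.15 and 0.15, so each DKO embryo stood above each control (-0.01 to 0.01). In the ATF4-type branch they were 0.15, 0.04 and 0.11, and DKO 2 was close to control 1, at 0.04.

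**Figure D4:**
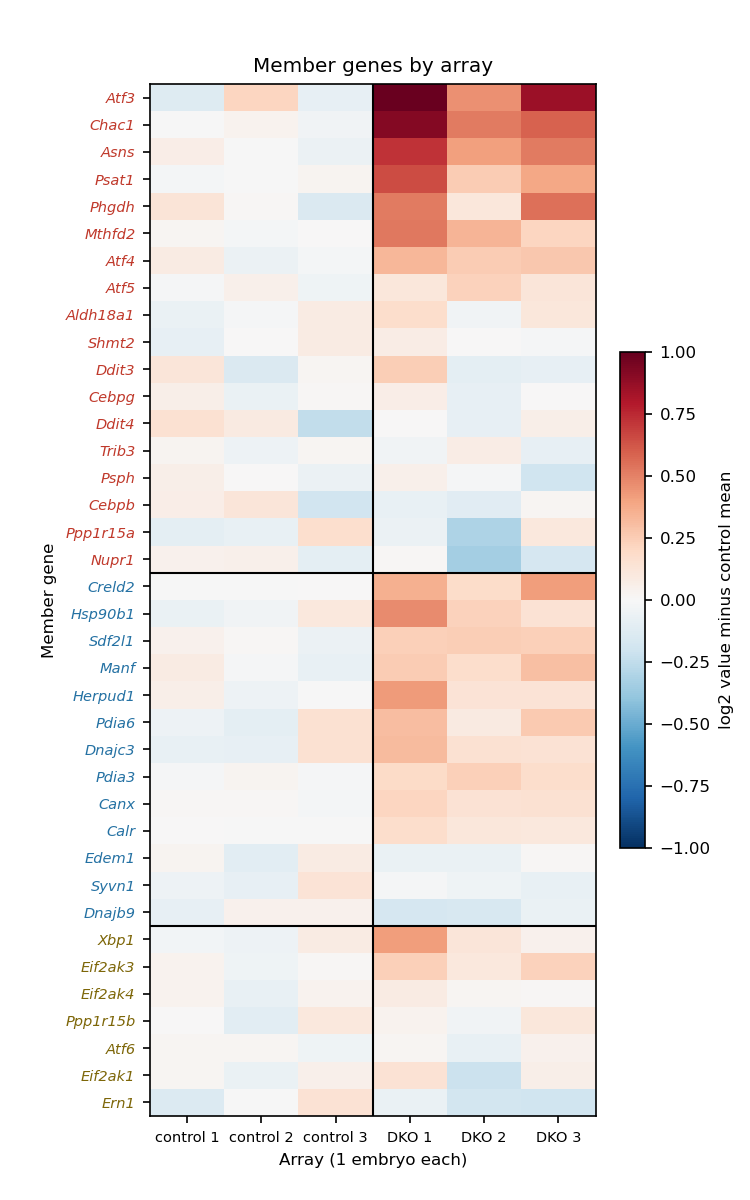
Log2 value minus the control mean of each gene for the 38 tested members (rows, grouped by branch and ordered by fold change) in the 6 arrays (columns); red is above and blue below the control mean. Atf3, Chac1 and Asns are darkest in DKO 1, and most ER chaperone genes are pale red in all 3 DKO arrays.

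Other genes of these pathways were taken from a pair of lists that held no member. In the list of ATF4 and amino acid response genes, 42 of 46 had a row and were tested: 1 rose (1.36% of all genes did), 0 fell, and 20 had a higher mean with an unadjusted p under 0.05 (6.39% of all genes). Without DKO 2, 5 passed (1.55% of all genes rose): Cth, Eif4ebp1, Jdp2, Mthfd1l and Slc7a3. In that fit 22 had an unadjusted p under 0.05 with a higher mean (7.33% of all genes). Slc7a3 had a control mean of 4.98, under the limit for dim genes (5.02). It was tested only because its DKO levels were higher, and it is counted in the 5, the 20 and the 22. The gene that rose in the main fit was Eif4ebp1, which encodes 4E-BP1, a translational repressor and ATF4 target. It was at 8.88, 8.90 and 8.50 in control and 10.13, 9.78 and 10.00 in DKO embryos, a log2 difference of 1.21 ± 0.13 (SE, limma adjusted p 0.00257) or 2.31-fold, and its adjusted p stayed between 0.00315 and 0.0175 with any 1 array left out. The next smallest p values were those of Mthfd1l, a mitochondrial folate enzyme, at 0.36 ± 0.08 (SE, adjusted p 0.0648), and Cth, which makes cysteine, at 0.45 ± 0.10 (SE, adjusted p 0.0759). Of 12 tested genes for cytosolic tRNA synthetases, a group set apart after the values were seen, 0 passed, 9 had an unadjusted p under 0.05 with a higher mean (6.39% of all genes), and the median was 0.22. Their log2 fold changes ranged from -0.03 to 0.34.

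In the list of ER folding, ERAD and unfolded protein response genes, 48 of 50 were tested: 1 rose (2.08%, against 1.36% of all genes), 0 fell, and 11 had a higher mean with an unadjusted p under 0.05 (22.9%, against 6.39%). Without DKO 2, 2 passed (Creb3 and Txndc5) and 14 had an unadjusted p under 0.05 with a higher mean, against 1.55% and 7.33% of all genes. Creb3, a transcription factor held in the ER membrane, rose. It was at 8.23, 8.08 and 8.07 in control and 9.27, 8.88 and 8.93 in DKO embryos, a log2 difference of 0.90 ± 0.11 (SE, limma adjusted p 0.00441) or 1.87-fold, and its adjusted p stayed between 0.00533 and 0.0282 with any 1 array left out. Its relative Creb3l2 had 0.45 ± 0.10 (SE, adjusted p 0.0639) and the disulfide isomerase Txndc5 0.41 ± 0.10 (SE, adjusted p 0.0973). Hspa5, which encodes BiP, the main ER chaperone, was at 8.57, 8.64 and 8.67 in control and 8.98, 8.76 and 8.87 in DKO embryos. All DKO arrays were above the controls, and the log2 difference was 0.24 ± 0.07 (SE, adjusted p 0.169), close in size to that of the member chaperones. The median of the list was 0.07.

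Marker lists of other cells also stood at different levels in the genotypes. The dissected tissue can hold dorsal midline and choroid plexus, a secretory epithelium. Of 14 tested markers 13 had a higher DKO mean (39.8% of all genes) and 2 rose, Lmx1a and Ttr (1.36% of all genes). Lmx1a was dim, at 5.28, 5.40 and 5.26 in control and 5.82, 5.78 and 5.74 in DKO embryos (limit for dim genes 5.02). The mean log2 level of the 14 was 6.09 to 6.36 in control and 6.48 to 6.80 in DKO embryos, highest in DKO 1. Ttr, which had the largest fold change of the list, was instead highest in DKO 2, at 10.25 against 8.84 in DKO 1 and 8.33 in DKO 3. Lmx1a did not pass without control 1, control 3 or DKO 1 (adjusted p 0.0583, 0.0540 and 0.0508), nor Ttr without any of the controls or DKO 1 (adjusted p 0.0749 to 0.141). Of 12 neuronal markers 11 had a lower DKO mean and 0 passed the limma test, with 7 lower at an unadjusted p under 0.05 (over all genes, 60.2% had a lower mean and 9.18% such a p) and list levels of 9.84 to 10.03 in control and 9.63 to 9.81 in DKO embryos. All 12 endothelial and pericyte markers had a lower DKO mean (60.2% of all genes), 0 passed and 4 had an unadjusted p under 0.05 (9.18% of all genes). Their median was -0.23, with list levels of 7.51 to 7.67 in control and 7.01 to 7.498 in DKO embryos. Without DKO 2, 8 of these 12 had a lower mean (56.3% of all genes), with a median of -0.07. The 11 tested markers of cortical progenitors, which identify the tissue, had mean levels of 9.86 to 9.92 in the 6 arrays. Single markers went both ways, with 4 higher and 4 lower at an unadjusted p under 0.05 (6.39% and 9.18% of all genes). Hes5, a Notch target of progenitors, fell by 0.90 on the log2 scale (limma adjusted p 0.00197), and the glutamate transporter gene Slc1a3 rose by 0.40 (adjusted p 0.0397, and 0.0684 to 0.147 with any 1 array left out). The part of these cells in the differences of the stress and ER genes was not tested. In a bulk sample, fewer cells of a type and less RNA per cell cannot be told apart.

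**Figure D5:**
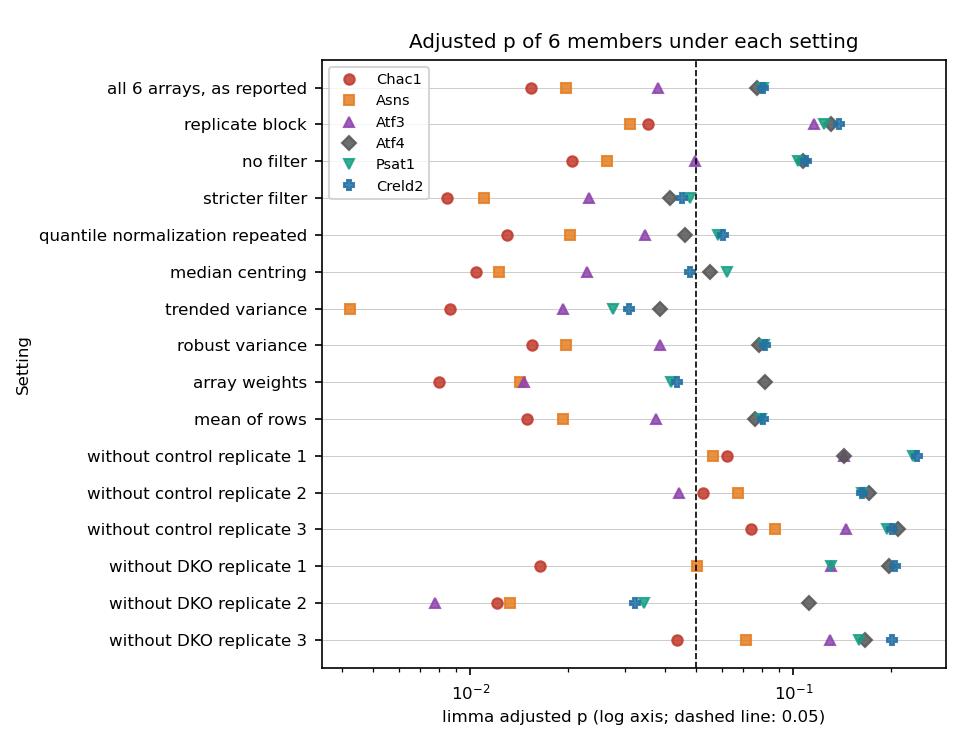
Limma adjusted p (log axis, dashed line at 0.05) of Chac1, Asns, Atf3, Atf4, Psat1 and Creld2 with all 6 arrays, under 9 other settings of the fit and with each array left out. Chac1 and Asns stay left of the line under the 9 other settings, and each of the 3 members that rose crosses it in at least 3 of the 6 fits that leave out 1 array.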

How the data were processed

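Total RNA of 6 cortices was profiled, 1 array per embryo. The deposited values are log2 values made by the authors with RMA, per the submitters' processing notes; its version and the probes' build are not given in the sources used here. The table held 41345 rows, of which 23521 had 1 gene symbol in the platform's annotation. For a gene with several rows the row with the highest mean over the 6 arrays was kept, and genes dimmer on average than 5.02, the 25th percentile over all rows with 1 symbol, were not tested. No detection call was at hand.

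DKO was compared with control by two-sided tests of limma 3.58.1 under R 4.3.3, using lmFit and eBayes without a covariate, with Benjamini-Hochberg adjustment over all 16724 genes and a threshold of 0.05. The fit had 4 residual and 4.44 prior degrees of freedom, and the number of arrays (3 per group) limits the precision. Fold changes are DKO minus control. Members and gene lists were chosen with earlier results of these data known, and lists are described by counts and medians without a list test. Named genes are all members and other pathway genes that passed, all members with an unadjusted p under 0.05, the 3 smallest p in each role and in each other pathway list, Hspa5 and the targeted genes. Other members are named to account for all 41, and the marker genes that passed and the group of tRNA synthetases were chosen after their values were seen. On simulated data for this comparison over 16724 genes, the test recovered 19.2% of changes of 0.3 (log2), 69.2% at 0.5 and 94.8% at 1. Of all calls made there, 4.61% were false. The simulated noise was normal and independent between genes, which the noise of these arrays need not be. Promoters came from a RefSeq table of GRCm38.p6. Alternatives were a replicate block, 2 other filters, 2 other scalings, 2 other variance models, array weights, the mean of a gene's rows and leaving out each array.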

Additional observations from a re-analysis of the deposited data

How the results depend on the processing

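Leaving out 1 array in turn moved the members that rose between 0 and 6 (main 3), those of the ATF4-type branch between 0 and 5, those of the ER branch between 0 and 1, the other ATF4 genes between 1 and 5 and the other ER genes between 1 and 2. Over all genes it gave 121 to 260 higher (main 228) and 11 to 54 lower (main 60). With the stricter filter, which tests fewer genes, 6 members rose, 5 of the ATF4-type branch and 1 of the ER branch, with 3 other ATF4 genes, 2 other ER genes and 134 lower genes overall. A trended variance gave 10 members, 6 ATF4-type, 4 ER, 5 other ATF4, 2 other ER and 162 lower genes. Array weights gave 5 members, 1 ER, 4 other ATF4, 2 other ER and 123 lower genes. Median centring gave 1 ER, 2 other ATF4 and 2 other ER genes, and repeated quantile normalization 2 other ATF4 genes. Calls over all genes rose as well. Higher genes were 287 of 11313 with the stricter filter and, of 16724, 323 with a trended variance and 298 with array weights. They were 289 with median centring and 259 with repeated quantile normalization (main 228). Where no cause is named, the cause was not tested. The sensor branch and the members that fell stayed at 0 throughout.

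With the replicate number as a block, 176 genes rose and 24 fell, 2 members rose (Asns and Chac1), and Atf3 was lost (adjusted p 0.116). The numbers share only a label: deviations of same-numbered arrays correlated at -0.103, 0.209 and 0.152, and control 1 correlated best with DKO 3, at 0.243.

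Among the genes named, directions turned only in members with fold changes near 0 that did not pass the limma test. With median centring Ddit4 was at 0.020, Atf6 at 0.025, Cebpg at 0.023, Eif2ak1 at 0.024 and Trib3 at 0.014. With repeated quantile normalization Atf6 was at 0.00045, Cebpg at 0.0044, Eif2ak1 at 0.0036 and Trib3 at 0.0065, and with array weights Ddit3 was at -0.029 and Eif2ak1 at 0.0030. With 1 array left out, Ddit4 lay between -0.13 and 0.069, Ppp1r15a between -0.18 and 0.024, Ppp1r15b between -0.016 and 0.087, Syvn1 between -0.084 and 0.023, Atf6 between -0.026 and 0.032, Cebpb between -0.15 and 0.0071, Cebpg between -0.039 and 0.035, Ddit3 between -0.090 and 0.083, Eif2ak1 between -0.077 and 0.10, Psph between -0.10 and 0.023, Shmt2 between -0.019 and 0.063 and Trib3 between -0.058 and 0.020. Signal over background could not be judged without a detection call.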

Other observations

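Some further genes of amino acid and translation control were measured and are given as values. Of 8 tested genes for amino acid transporters, 0 passed the limma test, 4 had an unadjusted p under 0.05 with a higher DKO mean (6.39% of all genes), and the median log2 fold change was 0.15. Slc7a3, a carrier of cationic amino acids, had the largest, 0.68 ± 0.16 (SE, adjusted p 0.0861), from a control mean of 4.98 that lies under the limit for dim genes (5.02). It is among the 4, and was tested only because its DKO levels were higher. Sesn2, a stress-induced regulator of mTORC1, was at 5.25, 5.46 and 5.21 in control and 6.37, 5.71 and 5.71 in DKO embryos (adjusted p 0.130), with DKO 1 far above the other DKO embryos. Its control mean of 5.31 was also close to the limit for dim genes. The 5 subunits of eIF2B, the exchange factor that phosphorylated eIF2 blocks, had log2 fold changes from -0.14 to 0.12. Of these, 0 passed the limma test (1.72% of all genes) and 0 had an unadjusted p under 0.05 (6.39% higher and 9.18% lower). These genes were singled out after their values were seen.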
